A study of Homo sapiens with 2 samples.

Results

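The genes described here encode the subunits of RNA polymerases I, II and III and of the Mediator complex. Members were the RefSeq GRCh38 protein-coding genes on chromosomes 1 to 22 whose symbols start with POLR1, POLR2 or POLR3, or with MED plus a number. There were 61 members among 20033 protein-coding genes: 8 of polymerase I, 15 of polymerase II, 10 of polymerase III and 28 of Mediator. Open chromatin had been profiled by ATAC-seq, an assay where the enzyme Tn5 cuts accessible DNA and leaves sequencing adapters there. The cells were U2OS, an established human osteosarcoma line. The sh-VNGD cells were infected with a short hairpin against Vanguard, a long non-coding RNA that the study's title describes as responsive to glucose deprivation, and the sh-ctrl cells with a control hairpin. Both groups were infected and grown in DMEM with serum, and each had 1 library, so no difference below has a replicate check, no p-value was computed and the intervals reflect counting error alone. The assay does not measure RNA, so neither the knockdown nor the output of these genes was measured.

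RNA polymerase I makes the precursor of the large ribosomal RNAs in the nucleolus, polymerase II makes messenger RNAs, and polymerase III makes transfer RNAs, the smallest ribosomal RNA and other short RNAs. The enzymes share a set of small subunits, while the pair of largest subunits that forms the active site of each has its own genes. Mediator joins DNA-bound activators to polymerase II, through a head and a middle that contact the polymerase, a tail that contacts activators, and a kinase module that comes and goes. The promoters of such widely used genes are typically open in most cell types.

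The promoters on which the results below turn are printed first, as the 250 bases before a listed RefSeq start (GRCh38.p14), 5′ to 3′ on the gene's strand. Capitals mark matches to any of the 9 motifs searched, described further below. POLR3E had the highest ratio between the libraries and POLR3B the lowest in the region nearest to a listed start. POLR2C differed between its own start and its other end. POLR2A, the gene of the largest polymerase II subunit, had little signal. MED25 had the highest Mediator ratio at a start, and MED18 held 4 kinds of motif.
POLR3E, chr16:22297159-22297408 (+ strand): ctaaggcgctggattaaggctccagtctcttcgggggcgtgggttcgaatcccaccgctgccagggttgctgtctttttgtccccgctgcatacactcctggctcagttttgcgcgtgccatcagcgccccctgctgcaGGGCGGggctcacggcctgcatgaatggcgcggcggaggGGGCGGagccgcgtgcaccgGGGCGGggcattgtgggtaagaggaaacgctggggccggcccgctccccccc
POLR3B, chr12:106357498-106357747 (+ strand): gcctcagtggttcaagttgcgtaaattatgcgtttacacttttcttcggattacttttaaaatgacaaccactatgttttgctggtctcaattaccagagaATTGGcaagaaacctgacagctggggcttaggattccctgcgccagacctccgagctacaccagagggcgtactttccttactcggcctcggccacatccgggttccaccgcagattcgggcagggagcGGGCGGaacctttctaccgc
POLR2C, chr16:57462429-57462678 (+ strand): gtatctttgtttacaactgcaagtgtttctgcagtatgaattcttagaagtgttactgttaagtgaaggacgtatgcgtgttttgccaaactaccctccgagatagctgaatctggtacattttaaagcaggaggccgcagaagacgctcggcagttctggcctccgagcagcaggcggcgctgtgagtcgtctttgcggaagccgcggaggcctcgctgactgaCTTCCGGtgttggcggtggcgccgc
POLR2A, chr17:7484116-7484365 (+ strand): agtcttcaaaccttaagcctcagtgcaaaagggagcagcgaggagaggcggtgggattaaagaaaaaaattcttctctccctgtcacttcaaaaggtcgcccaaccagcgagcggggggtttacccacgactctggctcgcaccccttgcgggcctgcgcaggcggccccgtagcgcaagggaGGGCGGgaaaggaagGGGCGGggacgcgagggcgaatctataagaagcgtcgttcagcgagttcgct
MED25, chr19:49818039-49818288 (+ strand): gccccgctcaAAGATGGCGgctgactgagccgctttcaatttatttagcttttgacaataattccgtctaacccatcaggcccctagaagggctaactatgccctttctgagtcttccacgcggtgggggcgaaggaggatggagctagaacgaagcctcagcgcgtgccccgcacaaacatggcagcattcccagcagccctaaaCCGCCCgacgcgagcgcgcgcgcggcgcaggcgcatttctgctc
MED18, chr1:28328790-28329039 (+ strand): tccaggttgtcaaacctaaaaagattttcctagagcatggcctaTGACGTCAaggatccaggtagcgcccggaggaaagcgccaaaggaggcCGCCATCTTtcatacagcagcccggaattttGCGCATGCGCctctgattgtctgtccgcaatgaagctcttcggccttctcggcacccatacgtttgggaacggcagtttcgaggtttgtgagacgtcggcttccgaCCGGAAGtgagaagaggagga

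Peaks had been called on each library alone. The value of a peak is its pileup, the number of extended tags over its summit, and the sh-VNGD library kept 31326715 tags against 22931980 in sh-ctrl. Repeats of a position, 0.35 of the sh-VNGD tags and 0.56 of the sh-ctrl tags, had been removed. Peaks of both libraries that overlapped were merged into regions, and each gene took the highest region within 1 kb of either of its outer ends. Ratios are on the log2 scale, sh-VNGD over sh-ctrl, with each pileup scaled to how many tags that library kept. The median ratio over 13915 genes was −0.45, and ratios of members are given relative to that median unless stated otherwise, which equals comparing unscaled pileups. Coordinates are those of GRCh38. In bulk samples, fewer cells with a region open and less opening per cell cannot be told apart. Before that centring, 57 of 59 members lay below 0, as did 12449 of all genes. Past a log2 difference of 0.5, uncentred ratios put 1 member higher and 29 lower in sh-VNGD, and 270 of all genes higher and 6153 lower.

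Almost every member had open chromatin at a gene end in both libraries. A peak was present in both for 60 of 61 members, against 70.2% of all protein-coding genes. Both libraries shared a region for 59 members, which have a ratio. Peaks found in just the sh-VNGD library (4.84% of all genes) or just the sh-ctrl library (2.66%) occurred at 0 members, and POLR1H had a peak in neither (22.3%). The median over members was 80 tags in sh-VNGD, against 90 in sh-ctrl. Over all genes with a ratio it was 73 tags in sh-VNGD, against 75 in sh-ctrl. Of the members, 27.1% stood above the upper quartile of those genes by pileup per kept tag, and 13.6% below the lower quartile. Pileups ran from 9 tags to 190 in sh-VNGD and from 9 to 173 in sh-ctrl.

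**Figure D1:**
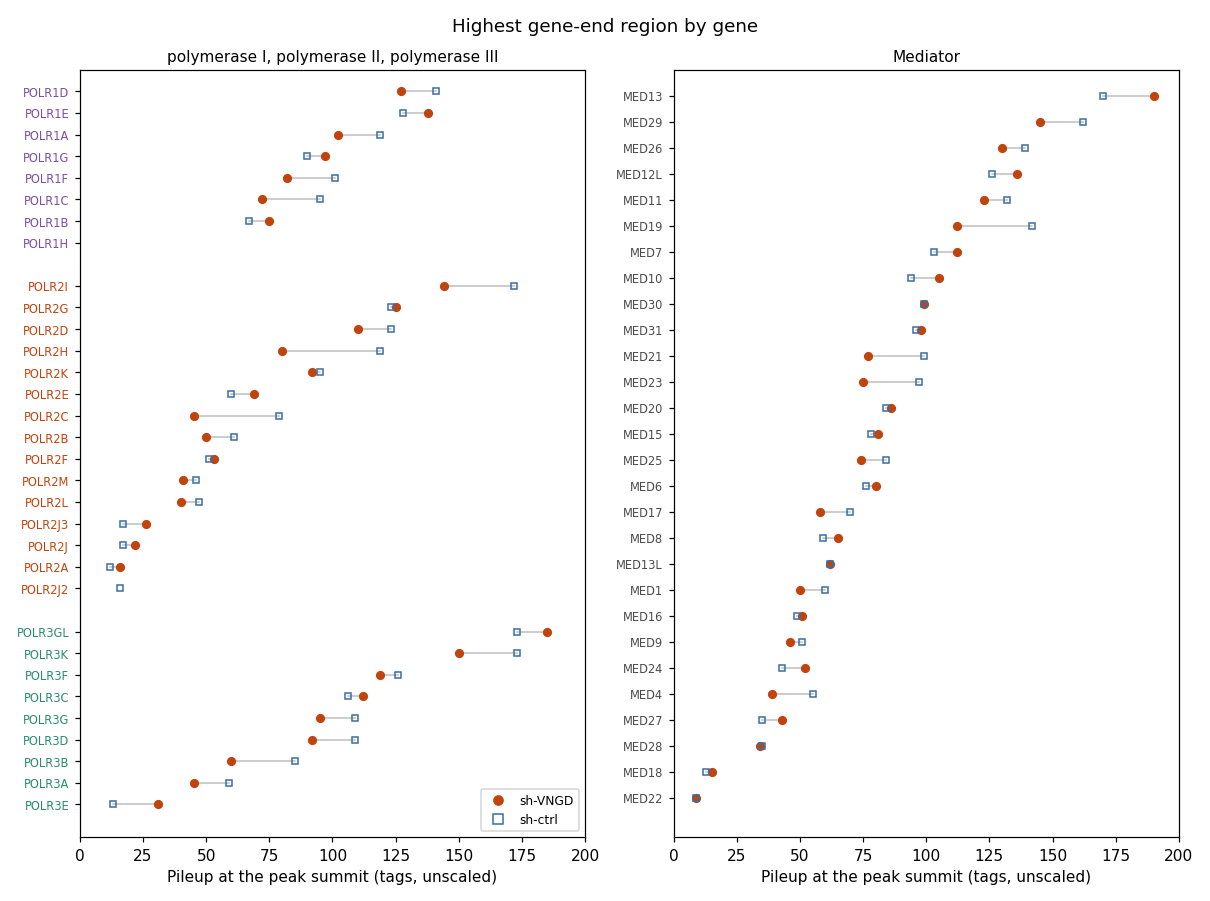
Summit pileup in tags, unscaled, of the highest gene-end region of the members shown (filled circles, sh-VNGD; open squares, sh-ctrl; 1 library each), by complex. Pairs of points lie close together for most genes, POLR2H, POLR2C and POLR3B sit lower in sh-VNGD, POLR1H has no point and POLR2J2 only a sh-ctrl point.

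The members differed little from the rest of the genome in the ratio between libraries. Their median ratio was −0.05 relative to all genes, with quartiles of −0.25 and 0.11, against quartiles of −0.19 and 0.19 for all genes. At a log2 ratio of 0.5 or more, 2 members were higher in sh-VNGD (3.39%, against 9.0% of all genes), POLR3E and POLR2J3. At −0.5 or less, 3 members were lower in sh-VNGD (5.08%, against 5.35% of all genes), POLR2C, POLR2H and POLR3B. Counting intervals lay wholly above the median of all genes for POLR3E alone (4.21% of all genes) and wholly below it for POLR2C, POLR2H and POLR3B (4.44%). These shares lie near or under the background. By complex, the median ratio was −0.15 for polymerase I (7 genes), −0.10 for polymerase II (14), −0.20 for polymerase III (10) and 0.0 for Mediator (28). The polymerase II median turned to 0.023 with a window of 2000 bp. Signal height differed more. The median pileup of polymerase I was 97 tags in sh-VNGD, against 101 in sh-ctrl. Polymerase II had 51.5 in sh-VNGD, against 60.5 in sh-ctrl. Polymerase III had 93.5 in sh-VNGD, against 109 in sh-ctrl, and Mediator 76 in sh-VNGD, against 81 in sh-ctrl. Within the 1 kb window, the polymerase II genes were thus the lowest group. No other complex had medians below those of all genes in both libraries. Stronger regions lay just outside that window at some polymerase II genes. POLR2J2 had one of 105 tags in sh-VNGD, against 77 in sh-ctrl, and POLR2J3 one of 101 in sh-VNGD, against 76 in sh-ctrl. Heights were not read in a wider window, so this ranking holds for 1 kb only.

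**Figure D2:**
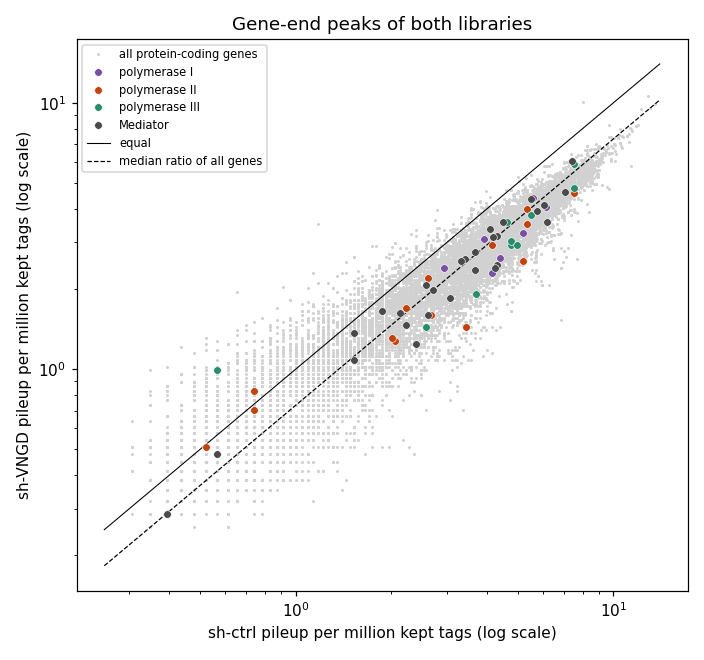
sh-VNGD against sh-ctrl summit pileup scaled to each library's kept tags, both on log scales, for 13915 protein-coding genes (grey) and the 59 members with a ratio (coloured by complex; 1 library per axis). The solid line marks equal values and the dashed line the median ratio of all genes, −0.45 on the log2 scale, along which most members lie; POLR3E stands above it at low signal and POLR2C below it.

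Polymerase I genes were open and near the genome-wide ratio, apart from POLR1H. POLR1A, which encodes the largest subunit, had 102 tags in sh-VNGD, against 119 in sh-ctrl, a ratio of −0.22 (−0.62 to 0.17). POLR1B, for the second largest, had 75 tags in sh-VNGD, against 67 in sh-ctrl, at 0.16 (−0.33 to 0.66), the highest of the group. The catalytic pair thus lay on opposite sides of the median of all genes, each within counting error of it. POLR1C and POLR1D encode the assembly pair shared with polymerase III. POLR1C was the lowest of the group at −0.40 (−0.86 to 0.06), with 72 tags in sh-VNGD, against 95 in sh-ctrl. POLR1D had the highest summed signal of the group, with 127 tags in sh-VNGD, against 141 in sh-ctrl (−0.15). Without this shared pair, the median of the other 5 was 0.11, which is the value of POLR1G, and by the authors' fold enrichment the group stood at 0.016. POLR1F, a stalk subunit, had 82 tags in sh-VNGD, against 101 in sh-ctrl (−0.30). POLR1E and POLR1G, counterparts of a pair of yeast elongation subunits, both stood at 0.11, with 138 tags in sh-VNGD, against 128 in sh-ctrl, for POLR1E, and 97 in sh-VNGD, against 90 in sh-ctrl, for POLR1G.

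POLR1G shows how a single number can hide the shape of a region. Its sh-ctrl peak ran unbroken over 1808 bp, from 45404950 to 45406757 on chromosome 19. In sh-VNGD the same stretch was called as 3 peaks of 97, 76 and 56 tags, the last of them with its summit at 45406617, and the highest summit of both libraries lay at 45405149. That summit lies at −1495 bp from the listed POLR1G start (negative is upstream), within a region that also touches the ends of PPP1R13L and ERCC1. Summing all peaks of the region gave a ratio of 1.35 in place of 0.11, with 3 sh-VNGD peaks summed, against 1 sh-ctrl peak. Taking from each library its own highest peak within the window gave −0.24, from 76 tags in sh-VNGD, against 90 in sh-ctrl, so the direction at POLR1G depended on which peaks were compared.

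POLR1H encodes a small zinc-ribbon subunit involved in RNA cleavage. No peak lay within 1 kb of either outer end in either library. Its listed start lies inside the outer bounds, and the region nearest to that start was a sh-ctrl peak of 16 tags at chromosome 6, 30061181 to 30061435, with no sh-VNGD peak. The closest region with peaks of both libraries, 1897 bp beyond the gene, had 44 tags in sh-VNGD, against 33 in sh-ctrl.

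Polymerase II genes ranged widely in height. POLR2I, for a small subunit at the jaw of the enzyme, was the highest with 144 tags in sh-VNGD, against 172 in sh-ctrl (−0.26, −0.59 to 0.07), in a region shared with TBCB. POLR2G and POLR2D, which encode the stalk, followed: POLR2G had 125 tags in sh-VNGD, against 123 in sh-ctrl (0.02, but −0.30 by fold enrichment), and POLR2D had 110 in sh-VNGD, against 123 in sh-ctrl (−0.16). POLR2A, for the largest and catalytic subunit, stood at the opposite end. Its only gene-end region, at chromosome 17, 7484705 to 7485002, had 16 tags in sh-VNGD, against 12 in sh-ctrl (0.42, −0.76 to 1.63), lower than all but 2.71% of genes with a ratio. The mean summit lay 480 bp downstream of the listed start, and no region touched the 250 bases printed above. POLR2B, for the second largest subunit, had 50 tags in sh-VNGD, against 61 in sh-ctrl (−0.29, −0.86 to 0.28), but its ratio was 0.25 with a window of 2000 bp.

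The lowest polymerase II ratios belonged to regions away from the outermost start. POLR2C encodes a subunit of the assembly platform. Its highest region lay at the other end of the gene, at chromosome 16, 57472546 to 57473113, within reach of an end of DOK4. There it had 45 tags in sh-VNGD, against 79 in sh-ctrl, a ratio of −0.81 (−1.37 to −0.27), the lowest of all members. At its own start, next to the bases printed above, it had 43 tags in sh-VNGD, against 45 in sh-ctrl, a ratio of −0.07 (−0.70 to 0.57). POLR2H, one of the subunits common to all polymerases, had 80 tags in sh-VNGD, against 119 in sh-ctrl (−0.57, −1.0 to −0.15) in a region of 1756 bp, at chromosome 3, 184362038 to 184363793, that holds its inner listed start. At its outer start, 105 bp from that of CLCN2 on the opposite strand, both libraries had 35 tags. The POLR2C and POLR2H values past −0.5 were therefore not found at the outer start of either gene. By fold enrichment neither gene passed −0.5, with POLR2H at −0.24.

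The other subunits common to all polymerases lay within counting error of all genes. POLR2E had 69 tags in sh-VNGD, against 60 in sh-ctrl (0.20), POLR2F 53 in sh-VNGD, against 51 in sh-ctrl (0.06), and POLR2K 92 in sh-VNGD, against 95 in sh-ctrl (−0.05). POLR2L had 40 tags in sh-VNGD, against 47 in sh-ctrl, at the end away from its start, and 32 in both libraries at the start. POLR2M, for a protein that binds polymerase II and keeps Mediator in control of it, had 41 tags in sh-VNGD, against 46 in sh-ctrl (−0.17).

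POLR2J, POLR2J2 and POLR2J3 encode near-identical copies of a platform subunit, so tags may be split among them and their values are uncertain. POLR2J3 had 26 tags in sh-VNGD, against 17 in sh-ctrl, a ratio of 0.61 (−0.32 to 1.59), and 0.13 by fold enrichment. POLR2J had 22 tags in sh-VNGD, against 17 in sh-ctrl (0.37). POLR2J2 had no ratio: a sh-VNGD peak of 10 tags lay near its low-coordinate end and a sh-ctrl peak of 16 tags near its other end. A region of 105 tags in sh-VNGD, against 77 in sh-ctrl, began 1037 bp beyond that end, just outside the window.

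**Figure D3:**
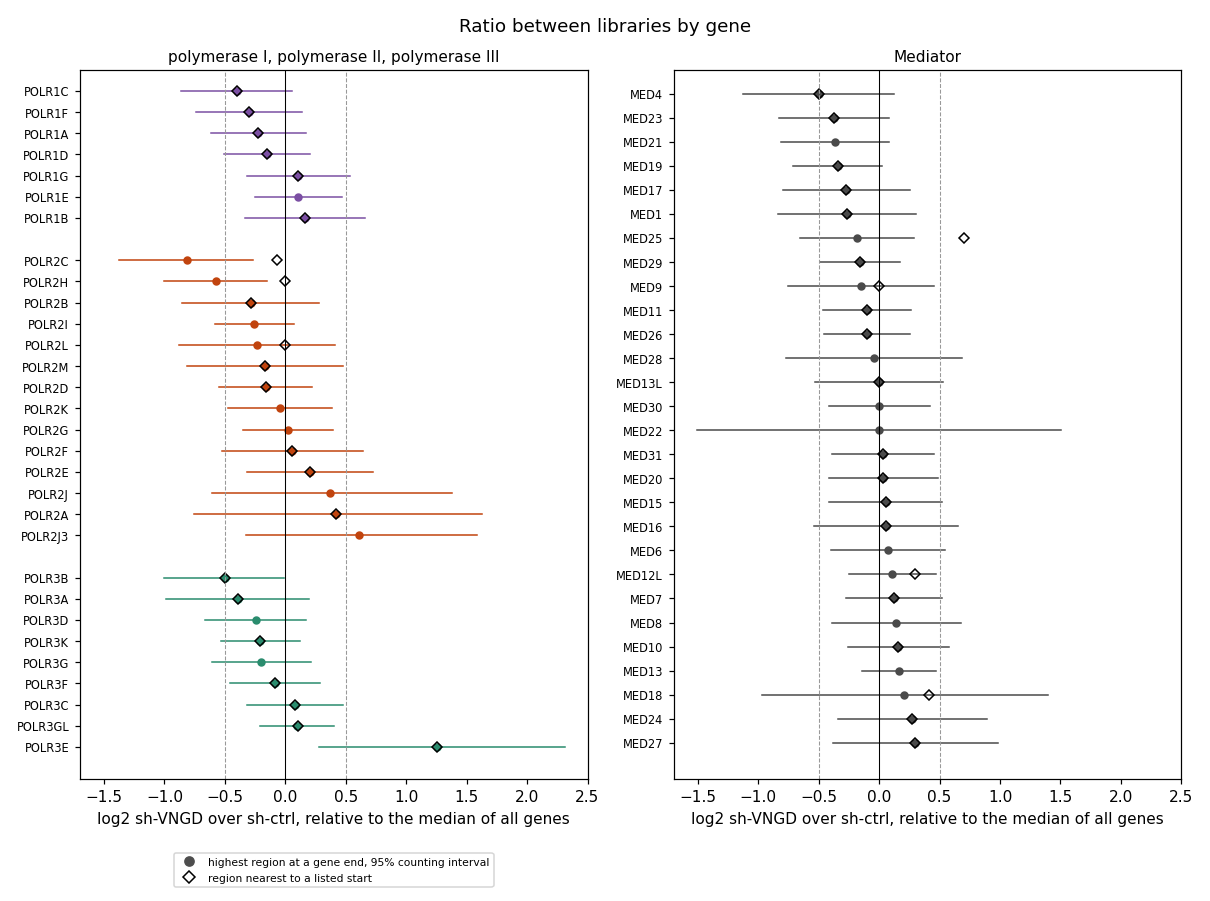
Log2 ratio of sh-VNGD over sh-ctrl relative to the median of all genes, for the members shown (1 library per group). Filled circles are the highest gene-end region with its 95% counting interval, and open diamonds the region nearest to a listed start. Dashed lines mark −0.5 and 0.5. POLR3E lies to the right by both readings, which use the same region for this gene. By the nearest region, POLR2C and POLR2H move to the centre and MED25 moves to 0.70. The POLR2H circle comes from a region that holds its inner listed start.

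Polymerase III genes had high gene-end signal and a median ratio of −0.20, with 7 of 10 below the median of all genes. POLR3A, for the largest subunit, had 45 tags in sh-VNGD, against 59 in sh-ctrl (−0.39, −0.98 to 0.19). POLR3B, for the second largest, had 60 tags in sh-VNGD, against 85 in sh-ctrl (−0.50, −1.0 to −0.01), and −0.21 by fold enrichment, in a region at chromosome 12, 106357498 to 106358599. Both catalytic genes thus had fewer tags in sh-VNGD, and only the POLR3B interval lay wholly below the median of all genes, by a narrow margin. The highest members were POLR3GL, with 185 tags in sh-VNGD, against 173 in sh-ctrl (0.10), and POLR3K, with 150 in sh-VNGD, against 173 in sh-ctrl (−0.21). POLR3GL and POLR3G encode alternative forms of a subunit of the initiation trimer. The POLR3GL value came from the end away from its start; at the start it had 160 tags in sh-VNGD, against 149 in sh-ctrl, again at 0.10. POLR3G had 95 tags in sh-VNGD, against 109 in sh-ctrl (−0.20). The alternative forms thus differed in height more than in ratio. POLR3C, another trimer gene, had 112 tags in sh-VNGD, against 106 in sh-ctrl (0.08). POLR3F, the last of them, had 119 tags in sh-VNGD, against 126 in sh-ctrl (−0.08), so all trimer genes lay within counting error of all genes. POLR3D stood at −0.24, with 92 tags in sh-VNGD, against 109 in sh-ctrl.

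POLR3E had the highest ratio of the members. It encodes a subunit that forms a dimer with the POLR3D product. At chromosome 16, 22297106 to 22297879, it had 31 tags in sh-VNGD, against 13 in sh-ctrl, a ratio of 1.25 (0.28 to 2.31). The sh-VNGD peak was 774 bp long, from 22297106 to 22297879, and the sh-ctrl peak 253 bp, from 22297203 to 22297455. Fold enrichment over local background was 7.44 in sh-VNGD, against 5.19 in sh-ctrl, 0.64 relative to all genes on the log2 scale. The local background was 3.3 tags in sh-VNGD, against 1.7 in sh-ctrl. Signal was low in both libraries, below that of all but 8.74% of genes with a ratio. Of all genes with a ratio, 9.0% were likewise at 0.5 or more, or 6.47% of those with at least 30 tags in either library. POLR3E met that limit only through its 31 tags in sh-VNGD, the library where it was higher. Both shares come mostly from genes of higher signal than POLR3E. They do not give how common such a ratio is among genes of similarly low signal.

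The region at the POLR3E start also covers a template of polymerase III itself. The leucine transfer RNA gene TRL-AAG2-4 lies at chromosome 16, 22297140 to 22297221, so that most of it falls within the POLR3E sequence printed above. POLR3E was the only member whose region overlapped a transfer RNA gene, as did the regions of 38 of 15570 protein-coding genes with one. The sh-VNGD peak covered the whole transfer RNA gene and the sh-ctrl peak began inside it. Inside POLR3E the order was the other way: 3 peak summits lay in the gene in sh-VNGD, against 6 in sh-ctrl, and the highest of them away from the start, 24 tags at 22300497 to 22300732, was called in sh-ctrl only.

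Mediator genes had no member past 0.5 in either direction, against 9.0% of all genes at 0.5 or more and 5.35% at −0.5 or less, and 3 had equal unscaled pileups. By module, the median ratio was 0.03 for the head (7 genes), −0.15 for the middle (9), 0.05 for the tail (5), −0.02 for MED27 to MED30, which are placed with head or tail (4), and 0.11 for the kinase module (3). In the kinase module, MED13 had the highest signal of all Mediator members, with 190 tags in sh-VNGD, against 170 in sh-ctrl (0.16, −0.15 to 0.47). Its relative MED13L had 62 tags in each library, and MED12L had 136 tags in sh-VNGD, against 126 in sh-ctrl (0.11). At the MED12L start itself, the values were 76 tags in sh-VNGD, against 62 in sh-ctrl (0.29). These genes are large, and 94 peak summits lay inside them in sh-VNGD, against 77 in sh-ctrl.

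The lowest Mediator ratios were in the middle and tail. MED4, a middle subunit, had 39 tags in sh-VNGD, against 55 in sh-ctrl, just short of −0.5 (−1.13 to 0.12), and −0.67 by fold enrichment. MED21 and MED19, also of the middle, stood at −0.36 and −0.34, MED21 with 77 tags in sh-VNGD, against 99 in sh-ctrl, MED19 with 112 in sh-VNGD, against 142 in sh-ctrl. MED1, which nuclear receptors bind, had 50 tags in sh-VNGD, against 60 in sh-ctrl (−0.26, −0.83 to 0.30). MED23, a tail subunit and a target of activators, had 75 tags in sh-VNGD, against 97 in sh-ctrl (−0.37, −0.83 to 0.08). MED10 and MED7, by contrast, lay above the median of all genes. MED10 had 105 tags in sh-VNGD, against 94 in sh-ctrl (0.16, −0.26 to 0.58), but −0.19 by fold enrichment. MED7 had 112 in sh-VNGD, against 103 in sh-ctrl (0.12, −0.28 to 0.52). The middle therefore held members on both sides, each within counting error of the median of all genes. MED26, which links Mediator to elongation factors, had 130 tags in sh-VNGD, against 139 in sh-ctrl (−0.10), MED31 had 98 in sh-VNGD, against 96 in sh-ctrl (0.03), and MED9 had 33 in each library at its start.

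In the tail, MED24 was highest at 0.27 (−0.34 to 0.89), with 52 tags in sh-VNGD, against 43 in sh-ctrl. MED15 and MED16 lay at 0.05 and 0.06, MED15 with 81 tags in sh-VNGD, against 78 in sh-ctrl, MED16 with 51 in sh-VNGD, against 49 in sh-ctrl. MED25 had separate regions upstream and at its start. The upstream one, at chromosome 19, 49817323 to 49817698, had 74 tags in sh-VNGD, against 84 in sh-ctrl (−0.18, −0.65 to 0.29). The one over the start, at 49817864 to 49818450, whose summits averaged 2 bp from it, had 57 tags in sh-VNGD, against 35 in sh-ctrl, a ratio of 0.70 (0.07 to 1.35). The 2 regions of MED25, less than 1 kb apart, thus stood on opposite sides of the median of all genes. Their intervals overlapped, and that of the upstream region spanned the median. Of all genes read at their start, 8.37% were at 0.5 or more.

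The head genes lay near the median of all genes, with weak signal in a pair of its genes. MED17, a core head subunit, was lowest at −0.27 (−0.80 to 0.25), with 58 tags in sh-VNGD, against 70 in sh-ctrl, although summing all peaks of its region gave 0.43. The others held close to equal pileups: MED11 had 123 tags in sh-VNGD, against 132 in sh-ctrl (−0.10), and MED20 had 86 in sh-VNGD, against 84 in sh-ctrl (0.03). MED6 had 80 tags in sh-VNGD, against 76 in sh-ctrl (0.07), and MED8 had 65 in sh-VNGD, against 59 in sh-ctrl (0.14). MED18 had 15 tags in sh-VNGD, against 13 in sh-ctrl, at the end away from its start, and its nearest region to the start, with its mean summit at −1007 bp, had 16 tags in sh-VNGD, against 12 in sh-ctrl. MED22 had only a region of 9 tags in each library, at chromosome 9, 133338294 to 133338597, below all but 0.061% of genes with a ratio. No region lay within 1 kb of the other MED22 end, and the closest beyond it, 3887 bp away, had 29 tags in sh-VNGD, against 12 in sh-ctrl. MED22 was therefore the least open member with a ratio. Of the genes placed with head or tail, MED29 was highest with 145 tags in sh-VNGD, against 162 in sh-ctrl (−0.16). MED30 had 99 tags in each library, and MED28 had 34 in sh-VNGD, against 35 in sh-ctrl (−0.04). MED27 had the highest Mediator ratio of this reading, 0.30 (−0.38 to 0.98), from 43 tags in sh-VNGD, against 35 in sh-ctrl, and −0.07 by fold enrichment.

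Most members were open at the start of transcription rather than merely somewhere at their ends. The set of RefSeq promoters used here listed a start for 45 members, and the start side of the others was not known from it. For 43 of the 45, the nearest region to touch the 1 kb around the start held peaks of both libraries. Its mean summit lay within 150 bp of the start for 34 of the 43 (79.1%, against 70.0% of all genes) and upstream of it for 36 (83.7%, against 77.9%). Read at the start, the median ratio of the 43 was 0.0, with 2 at 0.5 or more, POLR3E and MED25 (8.37% of all genes), and 1 at −0.5 or less, POLR3B (4.79%). By complex the medians at the start were −0.19 for polymerase I, 0.0 for polymerase II, −0.08 for polymerase III and 0.03 for Mediator. The 5 members whose highest region lay at the end away from the listed start were POLR2C, POLR2L, POLR3GL, MED9 and MED18.

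**Figure D4:**
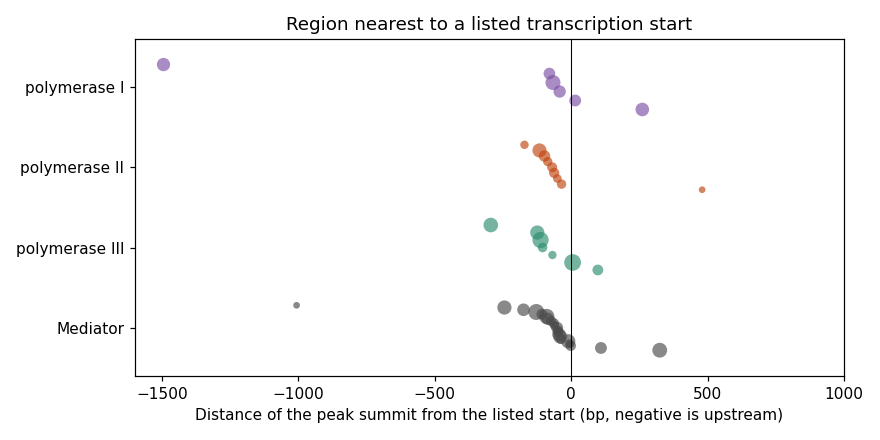
Distance in bp of the mean peak summit of both libraries from the nearest listed start, negative upstream, for 43 members by complex; the area of a point grows with the sh-VNGD pileup, and vertical offsets only separate points. Of these summits, 34 lie within 150 bp of the start, while POLR1G lies at −1495 bp, MED18 at −1007 bp and POLR2A at 480 bp.

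The polymerase genes often had a neighbour starting close by on the opposite strand. Such a neighbour within 1 kb, facing away, was listed for 15 of 45 members (33.3%), against 12.4% of all genes with a listed start. By complex there were 4 of 7 for polymerase I, 4 of 10 for polymerase II, 4 of 7 for polymerase III and 3 of 21 for Mediator. The pairs were POLR1A with PTCD3, POLR1C with YIPF3, POLR1D with LNX2, POLR1G with PPP1R13L, POLR2A with ZBTB4, POLR2F with C22orf23, POLR2H with CLCN2 and POLR2L with TSPAN4. POLR3C was paired with RNF115, POLR3F with DZANK1, POLR3GL with ANKRD34A, POLR3K with SNRNP25, MED19 with TMX2, MED20 with BYSL and MED29 with PAF1, itself an elongation factor gene of polymerase II. Starts of a pair lay up to 556 bp apart (MED20), and those of POLR2F and C22orf23 overlapped by 6 bp. A separate count, of chosen regions touching any other protein-coding gene end, gave 22 of 59 members (37.3%), against 27.7% of all genes. It does not hold all of the pairs above, as the chosen regions of MED20, POLR3GL and POLR2L touched no other gene end. Genes at these regions included TTL at POLR1B, SAMD4B at MED29, RASA4B at POLR2J, LOC124901712 at POLR2J3, FBXO43 at POLR2K, MBLAC2 at POLR3G, C17orf100 at MED31 and RASD1 at MED9. The signal of a shared region cannot be assigned to either gene.

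The promoter letters of the members were compared with those of all listed promoters, on both strands of the 250 bases before each start. There were 53 member promoters of 45 genes among 22174, with a median G+C content of 60%, against 62% for all. The ETS motif CCGGAAG was found in 26.4% of member promoters, against 10.7% of all, and the NRF1 motif GCGCATGCG in 11.3%, against 2.05%. The YY1 motif AAGATGGCG was in 3.77%, against 0.749%, in MED18 and MED25 alone among members. The motif GGGCGG of SP and KLF factors was in 64.2%, against 53.7%. CCAAT, which NF-Y binds, was in 28.3%, against 32.7%, and TATAAA in 5.66%, against 9.0%. The E-box CACGTG was in 7.55%, against 7.38%, and TGACGTCA, bound by CREB, in 3.77%, against 2.02%. ACTACAATT, of ZNF143, was in 0 member promoters, against 0.37% of all. Where matches of different motifs overlapped, each was counted. In the printed sequences, MED18 holds the ETS, NRF1, YY1 and CREB motifs, though its nearest summit lay at −1007 bp. POLR3E and POLR2A hold only GGGCGG, 3 matches in POLR3E and 2 in POLR2A. POLR2C holds an ETS match, on the opposite strand, next to its start.

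Peaks inside the genes were also counted, as summits between the outer ends. Members held 285 in sh-VNGD, against 208 in sh-ctrl. Per 100 kb this was 11.7 in sh-VNGD, against 8.57 in sh-ctrl, where all genes had 11.2 in sh-VNGD, against 8.08 in sh-ctrl. More summits in sh-ctrl were found for 9 members (14.8%), against 12.2% of all genes. These were POLR1H, POLR3C, POLR3E, POLR3G, POLR3GL, MED1, MED6, MED19 and MED24. At POLR3GL there was 1 in sh-VNGD, against 4 in sh-ctrl. MED27 held 25 in sh-VNGD, against 18 in sh-ctrl, and POLR2F, the longest polymerase II gene, 16 in sh-VNGD, against 10 in sh-ctrl.

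Genes of the factors that work with these enzymes were counted in the same way, and every matched gene of the 5 lists had gene-end peaks in both libraries. Of 10 polymerase I factor genes, 1 was at 0.5 or more and 1 at −0.5 or less, with a median of −0.25. RRN3, which brings polymerase I to its promoter, was highest at 0.68 (−0.17 to 1.56) and NOLC1, a nucleolar phosphoprotein gene, lowest at −0.53 (−0.92 to −0.13). Of 32 general factor genes of polymerase II, 1 was higher, TAF9 at 0.54, and 2 lower, with TAF12, a subunit of TFIID, lowest at −0.88 (−1.27 to −0.49) from 87 tags in sh-VNGD, against 160 in sh-ctrl (median −0.07). Of 29 elongation and assembly genes, 1 was higher, NELFE at 0.96 (0.10 to 1.87), and 2 lower, with TCEA2 at −0.93 (−1.51 to −0.36) (median −0.08). Of 18 genes listed for polymerase III, 2 were higher and 2 lower (median −0.15). CRCP, among the lower, encodes a polymerase III subunit that the symbol rule leaves out, and stood at −0.57 (−1.20 to 0.04). SNAPC2, for a subunit of the complex that activates small nuclear RNA genes, had 93 tags in sh-VNGD, against 47 in sh-ctrl (0.98, 0.46 to 1.52), and BDP1, of TFIIIB, 14 in sh-VNGD, against 22 in sh-ctrl (−0.65, −1.73 to 0.38). CDK8, the kinase of the Mediator kinase module, stood at −0.34, its cyclin gene CCNC at −0.21 and CDK19, the relative of CDK8, at −0.08. The shares of these lists past 0.5 can be set against the 9.0% and 5.35% of all genes, and the PAF1 value among the elongation genes comes from the region shared with MED29.

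The labelled cell type was checked against markers in the same way. Of 11 osteoblast and mesenchymal genes, 5 had gene-end peaks in both libraries, 2 in sh-VNGD alone and 1 in sh-ctrl alone, while RUNX2, SPARC and VIM had none at either outer end. Of 7 keratinocyte and epithelial genes, 6 had peaks in both, and of 7 haematopoietic genes 5 did. Open gene ends thus did not set the lineage markers apart. Single markers differed between the libraries, where 9.0% of all genes were at 0.5 or more and 5.35% at −0.5 or less. TWIST1, a mesenchymal transcription factor gene, had 41 tags in sh-VNGD, against 12 in sh-ctrl (1.77, 0.82 to 2.84). TP63, of basal epithelia, had 32 tags in sh-VNGD, against 11 in sh-ctrl (1.54, 0.51 to 2.68). On the same list, 2 of the 6 genes with a ratio were at 0.5 or more and 1 at −0.5 or less. The lower was KRT8, with 151 tags in sh-VNGD, against 219 in sh-ctrl (−0.54, −0.85 to −0.23). FN1, for the matrix protein fibronectin, had 44 tags in sh-VNGD, against 88 in sh-ctrl (−1.0, −1.56 to −0.46). The median ratio was −0.16 for the osteoblast list, 0.09 for the keratinocyte list and −0.45 for the haematopoietic list, where 3 of 5 genes lay below all genes by more than counting error. These lists' part in the member values was not tested.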

How the data were processed

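Peak lists of 2 ATAC-seq libraries of U2OS cells, 1 sh-VNGD and 1 sh-ctrl, were used. Per the file headers, MACS version 2.1.0.20150731 called peaks per library without a control, at a q cutoff of 0.05, with 5′ ends shifted by 100 bp and extended to 200 bp and 1 tag kept per position. Tools and builds listed in the submitters' processing notes are deepTools, MACS2 2.1.2, Bowtie2 2.2.5, GRCh38.p13 and hg38. The deposited pileup is a signal, the tags over a summit, unscaled; the deposited fold enrichment is its ratio to local background, and the deposited −log10 p and −log10 q values were used only to filter. Local background was recovered from pileup and fold enrichment.

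Overlapping peaks (at least 1 bp) were merged, and gene bounds, starts, transfer RNA genes and promoter sequences came from RefSeq tables of GRCh38.p14, whose chromosome sequences the peak lists share. Intervals are exact Clopper-Pearson 95% intervals of the count ratio (Python 3.11.15, SciPy 1.17.1). They were tested on simulated independent counts with known ratios. The simulation left out the choice of summits and of the highest region, so it cannot show the coverage for these pileups. Tags of 1 library are not independent samples, so intervals cover counting error only. Motifs were shortened to at most 9 letters after a search with longer forms. Members, lists and motifs were chosen with earlier results of these data known. Counts and medians cover all members, while some genes are not reported individually here or in the figures. Named genes were those past 0.5, the extremes of each complex, the largest subunits and members sharing a region. The reading nearest to a listed start was added after seeing the data.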

Additional observations from a re-analysis of the deposited data

How the results depend on the processing

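The median ratio of all members was −0.05. It ranged from −0.08 to 0.0 over windows of 500 and 2000 bp, fold enrichment, summed pileups, own peaks and both start readings. Other scalings left it at −0.05 but are no check of it. A factor common to a library cancels on centring, so they could change only which region was chosen. The polymerase I median, −0.15, was 0.016 by fold enrichment and 0.11 without its shared subunits. The polymerase II median, −0.10, was 0.023 within 2000 bp and 0.0 nearest to the start, that of polymerase III ranged from −0.28 to −0.08 and that of Mediator from −0.06 to 0.03. By fold enrichment 16 of 59 members, none of them past 0.5, changed sign. Members with no gene-end peak numbered 1, but 3 at a −log10 q of at least 5, 2 within 500 bp and 0 within 2000 bp. Members higher in sh-VNGD numbered 2, but 1 at a threshold of 1, 1 by intervals and 1 with at least 30 tags. The last was POLR3E, which met 30 tags only in sh-VNGD, where it was higher, so that filter lends it no support. Members lower numbered 3, but 0 at a threshold of 1 and 1 nearest to the start. Among all genes, 1253 were higher and 745 lower, but 244 and 82 at a threshold of 1, 586 and 618 by intervals, and 789 and 620 with at least 30 tags. Relative to the median height of all genes, polymerase I stood at 1.25 (1.13 by fold enrichment, 1.52 in the unshared regions of just 2 genes). Polymerase III stood at 1.40 (1.22 by fold enrichment, 1.19 in the unshared regions of 6 genes). Polymerase II stood at 0.81 (0.79 by fold enrichment). No height was read within 2000 bp. Of the 5 members past 0.5, none changed sign. POLR3E stayed past it throughout, but most alternatives reread its same pair of peaks. Windows, scalings, own peaks, summed pileups and start readings thus gave 1.25 to 1.27 and are no check of its ratio. Only fold enrichment brought in a further quantity, the local background, and there POLR3E was at 0.64. POLR2H was at 0.0 in the region nearest to a listed start, but at −0.56 in the highest region at its listed starts. By fold enrichment POLR2C was at −0.50, short of the threshold, POLR2H at −0.24, POLR3B at −0.21 and POLR2J3 at 0.13. Within 2000 bp POLR2J3 was at 0.41, also short of it. No paired analysis was possible because each group has 1 library. Pileups under about 20 tags, as in both libraries at POLR2A, MED18 and MED22 and in sh-ctrl at POLR3E and POLR2J3, leave wide intervals.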

Other observations

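Mediator has 2 further subunit genes on the X chromosome, outside the member rule. MED14, which encodes the scaffold that joins the modules, had 92 tags in sh-VNGD, against 90 in sh-ctrl, a ratio of 0.03 relative to all genes (−0.40 to 0.47). MED12, of the kinase module, had 14 tags in sh-VNGD, against 30 in sh-ctrl, a ratio of −1.10 (−2.13 to −0.14), lower than that of any member on chromosomes 1 to 22.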
